A study of Mus musculus with 6 samples.

Results

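Transcripts of 10 genes of endothelial adherens and tight junctions were examined in RNA sequencing libraries from the peritoneum of mice given peritoneal dialysis (PD) fluid or saline. The genes were Cdh5, Cldn5, Ocln, Tjp1, Jam2, F11r, Esam, Ctnnd1, Jup and Afdn. They were taken by symbol from a table of 22183 genes, and each symbol had a single row. All mice were wild-type (WT) C57BL/6J males, aged 8 to 10 weeks per the methods of the study. The PD mice (n = 3) received daily intraperitoneal injections of Dianeal PD fluid with 4.25% glucose for 6 weeks. The saline mice (n = 3) were sham-operated and received saline by the same route for the same time. Each mouse gave a single library of cells that the labels call endothelial. No sample lacked a group.

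The cells of a vessel wall are held together by adherens junctions and tight junctions, which together set how much solute and how many leukocytes pass between neighbouring cells. In the adherens junction, VE-cadherin (Cdh5) binds its counterpart on the next cell, while catenins join its tail to the actin cytoskeleton. In the tight junction, claudins and occludin seal the cleft, junctional adhesion molecules bind across it, and scaffold proteins such as ZO-1 (Tjp1) anchor them. Loss of VE-cadherin from the cell surface is a known route to vascular leak. In mice labelled Pfkfb3 WT, the study reported less VE-cadherin protein in peritoneal endothelial cells after PD fluid than after saline. Only transcripts are described here, and they do not measure protein or its place in the cell.

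On the sequencing scale used here, counts per 1000000 counts with library sizes scaled by the TMM method (CPM), 9 of the 10 junction genes were higher in PD mice, by 1.42-fold to 2.29-fold, and 0 were lower. Ocln did not pass the threshold. Relative to 12 other endothelial genes of the same libraries, 0 of the 10 were higher and 3 were lower, namely Tjp1, Jam2 and Afdn, where 8.48% of all genes tested were higher and 71.7% lower. Of the 12 endothelial genes themselves, 2 were higher and 4 lower on that scale. Over all 14005 genes tested, 58.9% passed the test on the TMM scale, 31.1% as higher and 27.8% as lower, with a median log2 fold change of 0.02. The median of the 10 junction genes was 0.87. A gene was called where the p of the quasi-likelihood test of edgeR, adjusted over all genes tested by the method of Benjamini and Hochberg, was below 0.05. SE stands for the standard error of a log2 fold change.

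The libraries held transcripts of markers of several cell types, and the levels of many of these markers differed between the groups. The total counts per library ran from 21973426 to 26374292. The 12 endothelial genes, none of them a junction gene of the set, summed to between 766 and 776 CPM in saline mice and between 1376 and 1422 CPM in PD mice. All 12 were higher in PD mice, by 1.45-fold (Tek, the angiopoietin receptor) to 3.14-fold (Tie1, its partner receptor). Markers of leukocytes, 14 genes, summed to 12122 to 12628 CPM in saline mice and 14244 to 14738 CPM in PD mice, with 6 higher and 7 lower. Ptprc, the leukocyte antigen CD45, had a mean of 2373 ± 127 CPM with saline and 1473 ± 63.6 CPM with PD fluid, above Pecam1, the sorting antigen CD31, at 469 ± 19.4 and 514 ± 7.85 CPM (SD, n = 3 each). Among the 7 that were lower were the B cell genes Ms4a1, Cd79a and Cd79b, and among the 6 that were higher the myeloid genes Adgre1, Csf1r, Itgam and Lyz2, the last from 1634 to 6690 CPM. The labels describe magnetic selection of CD31+ cells, while the supplementary methods describe fluorescence sorting of CD31+ CD45- cells from the mesentery.

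Of the other marker lists, the lymphatic, platelet, mesothelial, fibroblast and acinar sums rose by more than the endothelial sum, and the mural, leukocyte and epithelial sums by less. The sum of 7 lymphatic endothelial markers rose from between 227 and 248 CPM to between 1041 and 1185 CPM, with 7 of 7 higher. The sum of 12 mesothelial markers rose 7.04-fold to between 243 and 276 CPM, with 12 of 12 higher. The sum of 7 fibroblast markers rose 9.13-fold, with 7 of 7 higher, and the sum of 8 mural cell markers 1.54-fold, with 7 higher. The 8 pancreatic acinar markers summed to between 2.23 and 5.81 CPM in saline mice and between 6890 and 7770 CPM in PD mice. Of 7 epithelial markers, 2 had enough counts to be tested and 0 passed, and the sum stayed between 18.2 and 22.2 CPM in the 6 mice. Of 5 platelet markers, 3 were tested and 1 was higher, Pf4, a gene that macrophages also express. In such bulk libraries, fewer cells of a type and less RNA per cell cannot be told apart. The part of these lists in the junction gene values was not tested.

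**Figure D1:**
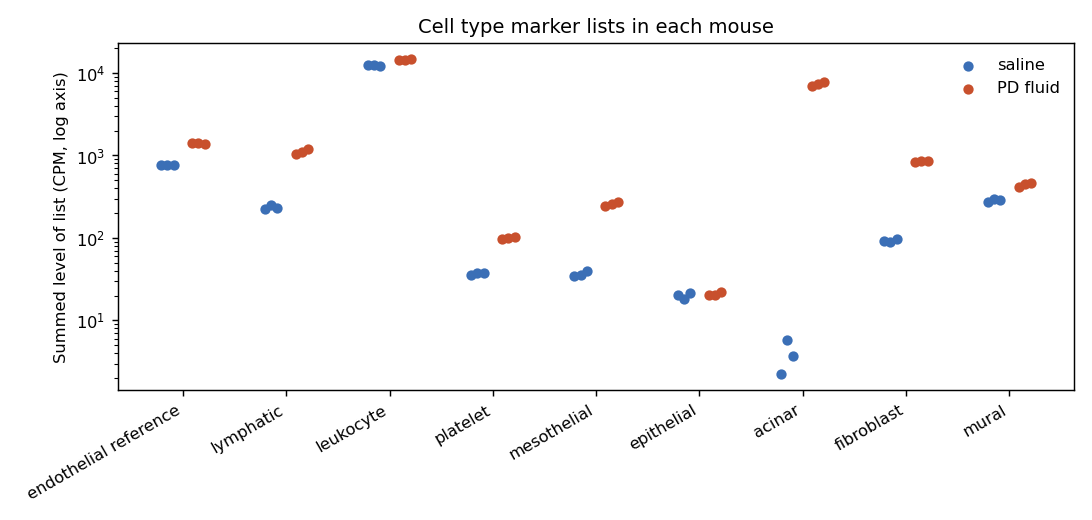
Summed CPM (log axis) of 9 lists of cell type markers in each of the 3 saline and 3 PD fluid mice, a point for each mouse. The endothelial list rises from at most 776 to at least 1376 CPM, the leukocyte list is the highest in every mouse, and the acinar, fibroblast, mesothelial and lymphatic lists are higher in each PD fluid mouse than in each saline mouse.

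VE-cadherin, the adhesive receptor of the endothelial adherens junction, is encoded by Cdh5 (ENSMUSG00000031871; chromosome 8 of GRCm38, 104101625 to 104144511). Its transcript was at 18.4, 16.5 and 21.9 CPM in the saline mice and at 34.0, 32.2 and 33.8 CPM in the PD mice. The groups did not overlap, which held for 65.6% of all genes tested, with PD mice higher for 34% and lower for 31.6%; it held for 9 of the 10 junction genes, all with PD mice higher. The log2 fold change was 0.82 (SE 0.11, edgeR adjusted p = 0.000109), or 1.76-fold with a 95% interval of 1.49 to 2.09. When the libraries were scaled to the 12 endothelial genes, it was -0.14 (95% interval -0.38 to 0.11, edgeR adjusted p = 0.283), and the groups overlapped. With 7 lymphatic endothelial genes added to the reference, Cdh5 was lower in PD mice, at -0.61 (edgeR adjusted p = 0.000152), and the number of junction genes called lower went from 3 to 8. The lymphatic genes rose by 3.26-fold to 6.22-fold, so adding them lowers the value of every gene. The share of all genes called lower with this reference was not counted, so the count of 8 is not read as a result about the junction genes. Cdh5 thus passed as higher on the TMM scale and did not pass relative to the 12 endothelial genes. The reference with lymphatic genes was chosen after seeing the data, and no direction of Cdh5 is concluded from it.

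**Figure D2:**
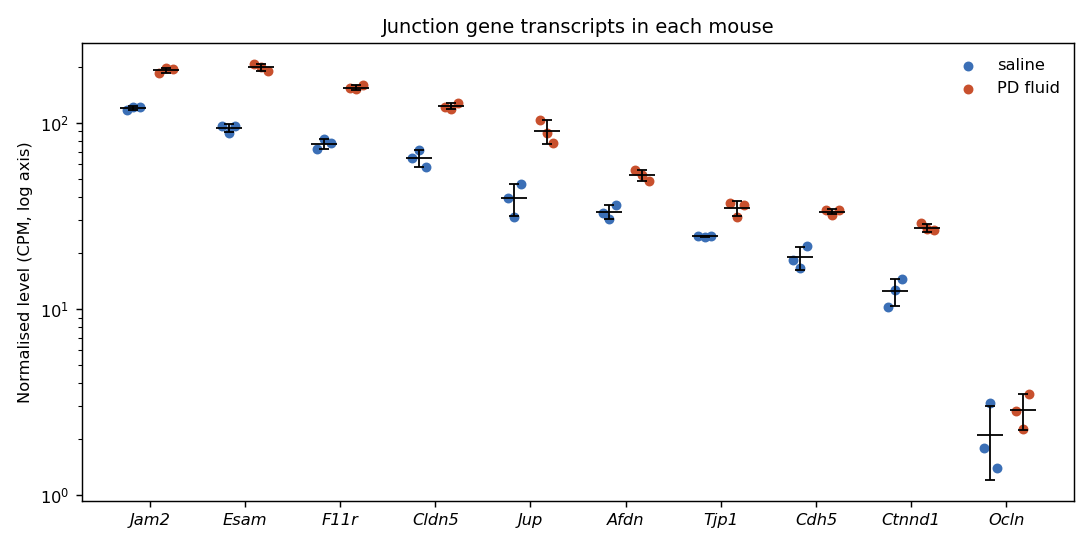
CPM (log axis) of the 10 junction genes in each mouse, with a point for each of the 3 saline and 3 PD fluid mice and black bars for the mean and SD. On this TMM scale the PD fluid points lie above the saline points for every gene except Ocln; relative to 12 endothelial genes 0 of the 10 were called higher.

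The armadillo proteins Ctnnd1 and Jup had the largest rises of the 10 genes on the TMM scale, which did not pass the test on the endothelial scale. p120-catenin, encoded by Ctnnd1 (ENSMUSG00000034101; chromosome 2, 84600071 to 84650765), binds the tail of VE-cadherin and holds it at the surface. It was at 10.3, 12.6 and 14.4 CPM in the saline mice and at 28.9, 26.8 and 26.5 CPM in the PD mice. The lowest PD mouse was above the highest saline mouse, and the log2 fold change was 1.14 (SE 0.13, edgeR adjusted p = 2.58e-05). The annotated exons of Ctnnd1 share 4482 bases with the gene Gm28635 on the same strand, so reads could be split between them. Plakoglobin, encoded by Jup (ENSMUSG00000001552; chromosome 11, 100368958 to 100397763), links cadherins to the cytoskeleton in adherens junctions and in desmosomes. It was at 39.4, 31.3 and 47.0 CPM in the saline mice and at 104, 88.3 and 77.7 CPM in the PD mice. This was the widest spread between mice among the genes that passed, and the groups were still apart, with a log2 fold change of 1.20 (SE 0.14, edgeR adjusted p = 4.05e-05).

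Afadin, encoded by Afdn (ENSMUSG00000068036; chromosome 17, 13760539 to 13906150), ties nectins to actin. Its transcript was at 32.9, 30.6 and 36.2 CPM in the saline mice and at 56.0, 52.2 and 49.0 CPM in the PD mice. The groups did not overlap, and the log2 fold change was 0.66 (SE 0.09, edgeR adjusted p = 0.000119). Of its 10223 exonic bases, 221 overlap Tcte2 on the opposite strand, and the library kit named in the labels is not described as stranded. Relative to the 12 endothelial genes, Afdn was lower in PD mice, with a log2 fold change of -0.30 (95% interval -0.51 to -0.09, edgeR adjusted p = 0.00961). Without saline replicate 3 it was -0.24 and did not pass (edgeR adjusted p = 0.0523).

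Among the tight junction proteins, claudin-5 is the dominant claudin of endothelium and occludin a four-pass membrane protein of the same strands. Cldn5 (ENSMUSG00000041378; chromosome 16, 18776847 to 18778262) was at 64.6, 71.2 and 58.1 CPM in the saline mice and at 122, 119 and 128 CPM in the PD mice. Every PD mouse was above every saline mouse, with a log2 fold change of 0.93 (SE 0.08, edgeR adjusted p = 4.01e-06). On the endothelial scale the change was -0.03 (95% interval -0.24 to 0.18, edgeR adjusted p = 0.794). Ocln (ENSMUSG00000021638; chromosome 13, 100496507 to 100552718) was near the limit of measurement, with 46, 68 and 34 counts in the saline mice and 77, 54 and 77 in the PD mice. As CPM these were 1.80, 3.14 and 1.41 against 2.83, 2.26 and 3.49, so that the second saline mouse lay among the PD mice. The log2 fold change of 0.44 had a 95% interval of -0.25 to 1.14 (edgeR adjusted p = 0.245). Without saline replicate 2 it was 0.83 (edgeR adjusted p = 0.0364), so this library decided the call. On the endothelial scale Ocln was at -0.51 (95% interval -1.19 to 0.17, edgeR adjusted p = 0.15), and without saline replicate 3 it was called lower, at -0.74 (edgeR adjusted p = 0.0469).

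ZO-1, the scaffold that couples claudins and occludin to actin, is encoded by Tjp1 (ENSMUSG00000030516; chromosome 7, 65296165 to 65527781). Its transcript was at 24.5, 24.4 and 24.8 CPM in the saline mice, the tightest of the set, and at 37.0, 31.1 and 36.4 CPM in the PD mice. The groups did not overlap, and the log2 fold change of 0.50 (SE 0.09, edgeR adjusted p = 0.000971) was the smallest among the 9 genes that passed. On the endothelial scale Tjp1 was lower in PD mice, by -0.45 (95% interval -0.68 to -0.22, edgeR adjusted p = 0.00115).

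The junctional adhesion molecules are immunoglobulin-type proteins that bind across the cleft and take part in leukocyte passage. Esam (ENSMUSG00000001946; chromosome 9, 37528078 to 37538319), an endothelial and platelet member of the family, was at 96.3, 88.5 and 96.3 CPM in the saline mice and at 206, 199 and 190 CPM in the PD mice. The gap between the groups was far wider than the spread within either, and the log2 fold change was 1.08 (SE 0.07, edgeR adjusted p = 1.91e-07). F11r (ENSMUSG00000038235; chromosome 1, 171437535 to 171464603), which encodes JAM-A of endothelium, epithelium, platelets and leukocytes, was at 72.4, 81.7 and 78.1 CPM in the saline mice and at 153, 152 and 159 CPM in the PD mice. Its log2 fold change was 1.00 (SE 0.07, edgeR adjusted p = 5.11e-07), with no overlap between the groups.

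Jam2 (ENSMUSG00000053062; chromosome 16, 84774123 to 84825928), which encodes the vascular and lymphatic member JAM-B, was at 117, 121 and 122 CPM in the saline mice and at 184, 196 and 194 CPM in the PD mice. Both groups were tight and apart, with a log2 fold change of 0.68 (SE 0.06, edgeR adjusted p = 4.36e-06). Relative to the endothelial genes the members of this family differed in call. Jam2 was lower in PD mice, by -0.28 (95% interval -0.46 to -0.10, edgeR adjusted p = 0.00566). F11r was at 0.04 (95% interval -0.15 to 0.24) and Esam at 0.13 (95% interval -0.04 to 0.30), and neither passed the test.

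The promoter sequences of these genes are given as descriptions, and a link between them and the changes was not tested. ETS family factors such as ERG are known to bind the cores GGAAG in endothelial genes. RefSeq promoter sequences on GRCm38.p6 matched 7 of the 10 genes, and Cdh5, Jam2 and Esam had none. The 250 bases before the start of 3 genes with different changes are shown, namely Cldn5 and F11r, which rose by about equal amounts, and Tjp1, which rose least among the genes that passed. The Cldn5 window ends just before the annotated start of the gene, the last 26 bases of that of F11r lie in an annotated exon, and that of Tjp1 lies inside the annotated gene, before an internal start. Capitals mark GGAAG on either strand (CTTCC when read on the gene's strand).
Cldn5, plus strand, chr16:18776597-18776846: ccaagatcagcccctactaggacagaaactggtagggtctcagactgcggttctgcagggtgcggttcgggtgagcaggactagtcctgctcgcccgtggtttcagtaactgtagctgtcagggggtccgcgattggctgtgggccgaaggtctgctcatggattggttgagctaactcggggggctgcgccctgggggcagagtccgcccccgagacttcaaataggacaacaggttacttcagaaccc
F11r, plus strand, chr1:171437311-171437560: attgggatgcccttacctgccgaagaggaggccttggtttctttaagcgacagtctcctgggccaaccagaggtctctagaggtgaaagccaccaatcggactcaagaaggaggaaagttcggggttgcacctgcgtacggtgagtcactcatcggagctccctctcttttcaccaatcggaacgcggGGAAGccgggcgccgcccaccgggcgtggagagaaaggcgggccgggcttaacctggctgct
Tjp1, minus strand, chr7:65371245-65371494: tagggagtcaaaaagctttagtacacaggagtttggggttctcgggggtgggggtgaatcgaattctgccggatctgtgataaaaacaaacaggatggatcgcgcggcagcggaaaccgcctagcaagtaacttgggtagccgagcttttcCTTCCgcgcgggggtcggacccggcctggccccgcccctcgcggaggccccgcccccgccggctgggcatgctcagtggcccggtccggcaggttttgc
The Cldn5 window holds no GGAAG, that of F11r holds 1 and that of Tjp1 holds 1. In all, 3 of the 7 genes (Tjp1, F11r and Ctnnd1) held the motif in at least 1 of their windows, beside 64.1% of all 32851 promoter windows of the same length. The E-box CAGGTG, to which Snail and Slug bind, was in windows of 2 of the 7 genes (F11r and Ocln), beside 17.2% of all windows. In Ocln it was in a window of which 155 of 250 bases lie in annotated exons. The 7 genes had 9 windows, with more than 1 for Ctnnd1 and Ocln, so counts of genes and shares of windows are unlike measures. The SOX core ACAAT was in a window of Ctnnd1 (27.7% of all windows) and the AP-1 site TGACTCA in that of F11r (4.46% of all windows). Such matches are descriptions of letters and not binding sites, and the absence of a match says nothing about a factor.

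The 12 endothelial genes give the scale against which these changes can be read. Their log2 fold changes ran from 0.53 to 1.65 with a median of 0.93, and 8 of the 10 junction genes lay within that range, 2 below it (Tjp1 and Ocln) and 0 above it. After scaling to them, the median of all genes moved by -0.96 on the log2 scale, and 80.2% of the 14005 genes passed. The groups did not overlap for 80.3% of the genes, with PD mice higher for 9.06% and lower for 71.2%. The junction genes had 0 higher and 3 lower, with a median of -0.08. Of the 12 endothelial genes themselves, 2 were higher and 4 lower, with values from -0.42 (Tek) to 0.70 (Tie1). A lower call was thus not particular to junction genes. The values of Tjp1, Jam2 and Afdn were below those of all saline mice in each PD mouse on this scale. Esam values were above those of all saline mice in each PD mouse, although its change did not pass the test. Jup was at 0.24 (95% interval -0.03 to 0.51, edgeR adjusted p = 0.0894) and Ctnnd1 at 0.18 (95% interval -0.10 to 0.47), which did not pass. Without saline replicate 3 or without PD fluid replicate 3, Jup passed as higher, with values of 0.38 and 0.31.

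**Figure D3:**
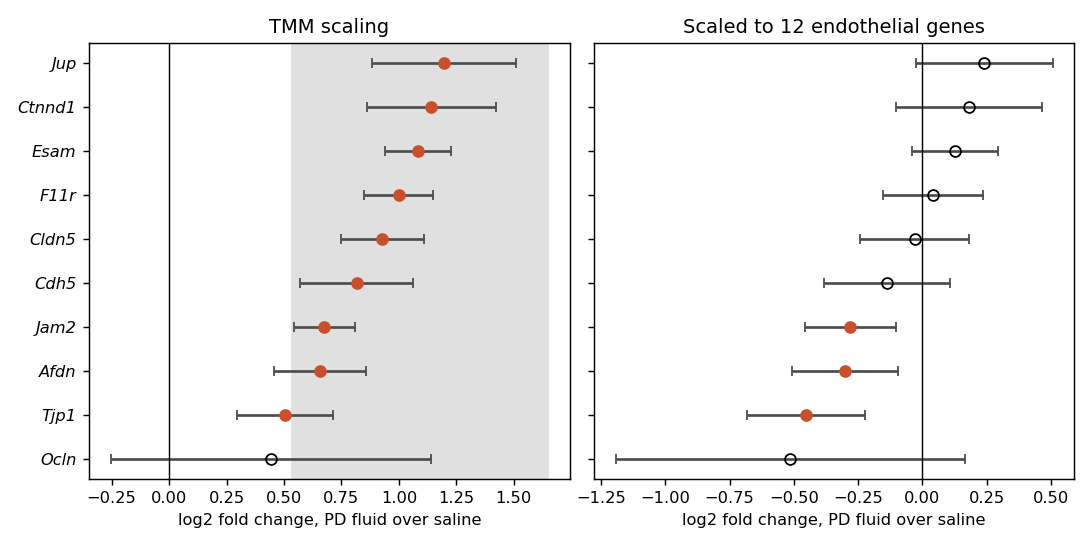
Log2 fold changes of the 10 junction genes, PD fluid over saline, with 95% intervals (3 mice a group), on the TMM scale (left, grey band: range of the 12 endothelial genes, 0.53 to 1.65) and after scaling to those genes (right); filled points have an adjusted p under 0.05. The 9 filled points on the left are all above 0, while on the right Tjp1, Afdn and Jam2 are filled and below 0.

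Ratios to Cdh5 in the same mouse, which need no scaling between libraries, moved in both directions. The ratio of Jup to Cdh5 was 2.14, 1.90 and 2.15 in the saline mice and 3.05, 2.75 and 2.29 in the PD mice, a log2 difference of 0.38. That of Ctnnd1 was 0.56, 0.76 and 0.66 in the saline mice and 0.85, 0.83 and 0.78 in the PD mice, and that of Esam rose from a mean of 5.0 ± 0.521 to 5.96 ± 0.297 (SD, n = 3 each). In the opposite direction, the ratio of Tjp1 fell from 1.33, 1.48 and 1.13 to 1.09, 0.97 and 1.08, and that of Afdn from 1.79, 1.85 and 1.66 to 1.64, 1.62 and 1.45. These 5 ratios did not overlap between the groups, and those of Cldn5, F11r, Jam2 and Ocln did. Over all 14004 other genes tested, the ratio to Cdh5 did not overlap for 77.4%, with PD mice higher for 10.3% and lower for 67.1%. Of the 5, Jup, Ctnnd1 and Esam were higher in PD mice, and Tjp1 and Afdn lower. Whether the 9 junction gene ratios differ from this background was not tested. For each of the 5, p was 0.1 in an exact permutation test, two-sided, which is as low as 3 mice against 3 can give (0.18 after Benjamini-Hochberg adjustment over 9 ratios), so that no ratio could pass the threshold. The lower ratios of Tjp1 and Afdn shared their direction with 67.1% of the other genes, and the higher ratios of Jup, Ctnnd1 and Esam with 10.3%. These ratios are therefore given as descriptions, and no change of a junction gene relative to Cdh5 is concluded from them.

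Levels of different genes were compared per length, with the FPKM values that the authors deposited. In saline mice Esam was the highest, at 50.7 ± 2.59 FPKM, followed by Cldn5 at 45.4 ± 4.21, Jam2 at 31.2 ± 0.951, F11r at 30.6 ± 1.71, Jup at 12.2 ± 2.53, Afdn at 11.2 ± 1.23, Cdh5 at 4.72 ± 0.715, Tjp1 at 3.71 ± 0.0814, Ctnnd1 at 2.41 ± 0.402 and Ocln at 0.877 ± 0.443 FPKM (SD, n = 3 each). Esam and Cldn5, Jam2 and F11r, and Jup and Afdn overlapped between mice, while the other neighbours in this order were separate. Among PD mice the values of Tjp1 and Ctnnd1 were the neighbours that overlapped. The order there differed only in that F11r, at 61.6 ± 1.11 FPKM, stood above Jam2, at 51.2 ± 2.29 FPKM (SD, n = 3 each), without overlap. Esam reached 108 ± 7.26 FPKM and Cdh5 8.37 ± 0.365 FPKM (SD, n = 3 each). VE-cadherin was thus among the lower transcripts of the set in both groups, below the transcripts of the tight junction and JAM family surface proteins other than occludin.

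**Figure D4:**
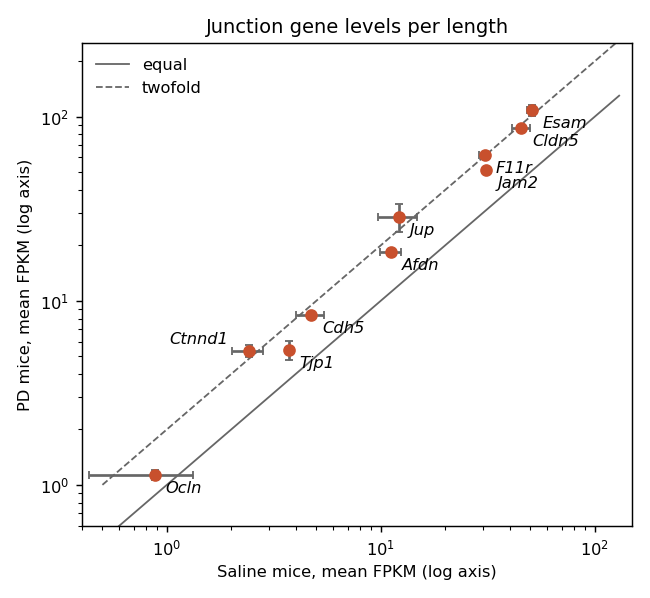
Mean FPKM as deposited of each junction gene in saline mice (x) and PD fluid mice (y), both on log axes, with SD bars (3 mice a group) and lines for equal and doubled levels. All points lie above the line of equal levels on this scale (the SD of Ocln crosses it), although relative to 12 endothelial genes 0 of the 10 were called higher; Esam and Cldn5 are the highest and Ocln the lowest in both groups.

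Beyond the 10 genes, other adherens junction genes were mostly higher as well. Of 15 cadherins, catenins, nectins and their partners, 12 were higher on the TMM scale and 0 lower, with a median log2 fold change of 0.96, while relative to the 12 endothelial genes 3 were higher and 7 lower. For this and the following lists, the shares over all genes tested were 31.1% higher and 27.8% lower on the TMM scale, and 8.48% higher and 71.7% lower on the endothelial scale. Cdh1, the epithelial cadherin, rose from 1.35 ± 0.0934 to 4.97 ± 0.208 CPM (SD, n = 3 each), a log2 fold change of 1.87 (edgeR adjusted p = 2.35e-05). Nectin2, an afadin-bound adhesion receptor, rose by 1.60 and Arvcf, a relative of p120-catenin, by 1.25 on the log2 scale. The catenins that link cadherins to actin rose less, with Ctnna1 at 0.43 and Ctnnb1 at 0.62, and both were lower relative to the endothelial genes, at -0.52 and -0.33. Cdh1, Nectin2 and Ptprm, a receptor phosphatase bound to VE-cadherin, were the 3 that were higher on both scales.

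Of 26 other tight junction genes, 25 were in the table and 23 were tested. On the TMM scale 14 were higher and 3 lower, with a median log2 fold change of 0.85, and on the endothelial scale 6 were higher and 9 lower. The largest rises were in claudins and a plaque protein known from epithelia. Cldn3 had 1, 0 and 3 counts in the saline mice and 28, 17 and 18 in the PD mice, with a log2 fold change of 3.82 (95% interval 2.32 to 5.32). Cldn7 had 0, 3 and 1 counts against 14, 15 and 10, and Cgn, which encodes cingulin, 7, 7 and 0 against 24, 40 and 64. These rises stood on few reads and came beside the rises of the acinar and mesothelial lists given above, whose part in them was not tested. The genes that were lower on both scales were Marveld2, which encodes the tricellular junction protein tricellulin and fell from 17.7 ± 0.913 to 9.18 ± 1.24 CPM (SD, n = 3 each, log2 fold change -0.95, edgeR adjusted p = 0.000117), the polarity scaffold Patj at -0.77, and Tjp3, which encodes ZO-3, at -0.34.

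Of 6 desmosome genes, 3 had enough counts to be tested. Pkp2 and Dsg2 were higher, with log2 fold changes of 2.77 and 1.67, and Pkp3 lower, at -0.36, on both scales alike in direction. Pkp1 had 0 counts in all mice, and Dsp and Dsc2, which encode desmoplakin and a desmosomal cadherin, had at most 7 counts in any mouse. Pkp2 stood on few reads, with 3, 5 and 7 counts in the saline mice and 22, 58 and 26 in the PD mice. On the TMM scale plakoglobin, Pkp2 and Dsg2 were thus higher and Pkp3 lower. Plakoglobin did not pass on the endothelial scale, and Pkp1, Dsp and Dsc2 had few or no reads.

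Regulators of endothelial junctions were called at shares near those of all genes. Of 20 junction signalling genes, 7 were higher and 6 lower on the TMM scale, with a median log2 fold change of 0.16, and 3 higher and 15 lower on the endothelial scale, beside 31.1% and 27.8%, and 8.48% and 71.7%, of all genes. The 3 that were higher on both scales were Src, a kinase that phosphorylates VE-cadherin, at 2.27, Radil, a RAP1 effector, at 2.18, and Rasip1, an endothelial RAP1 effector, at 1.99. Src and Radil stood on few reads. Src had 6, 12 and 12 counts in the saline mice and 71, 52 and 30 in the PD mice, and Radil 12, 2 and 13 against 60, 34 and 33. Rasip1 rose from 25.7 ± 8.59 to 102 ± 19.5 CPM (SD, n = 3 each, edgeR adjusted p = 2.19e-05). The 3 genes of the cerebral cavernous malformation complex, which stabilises endothelial junctions, were lower on the TMM scale. Their log2 fold changes were -0.75 for Ccm2, -0.45 for Pdcd10 and -0.26 for Krit1. Rap1b, a small GTPase that strengthens cadherin adhesion, was at -0.32. In saline mice Ccm2 had a mean of 393 CPM and Rap1b of 1333 CPM, beside 18.9 CPM for Cdh5. Of the 14 leukocyte markers, 7 were lower as well, among them Ptprc at -0.69, and 6 were higher. Which cells the transcripts of these regulators came from was not tested.

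Of 8 other contact proteins in the table, 7 were higher and 0 lower on the TMM scale, against 2 higher and 3 lower on the endothelial scale. Mcam, the adhesion molecule CD146, rose by 1.36 and Gja1, the gap junction protein connexin 43, by 1.32 on the log2 scale, and Pvr, a nectin-like receptor, by 0.86. Pecam1 stood at 0.13 on the log2 scale (edgeR adjusted p = 0.0704) on the TMM scale and was lower on the endothelial scale, at -0.83. Leukocytes also express it. Among transcription factors known to repress cadherin and claudin genes, 3 of the 4 tested were higher and 0 lower on the TMM scale, while 1 was higher and 3 were lower on the endothelial scale. Snai1 rose from 2.42 ± 0.0929 to 8.90 ± 1.01 CPM (SD, n = 3 each), a log2 fold change of 1.88 (edgeR adjusted p = 5.05e-06), and by 0.92 on the endothelial scale. Zeb2, at 0.62, and Snai2, at 0.56, were lower on the endothelial scale, at -0.34 and -0.39. Zeb1, at -0.21, did not pass on the TMM scale and was lower on the endothelial scale, at -1.17.

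**Figure D5:**
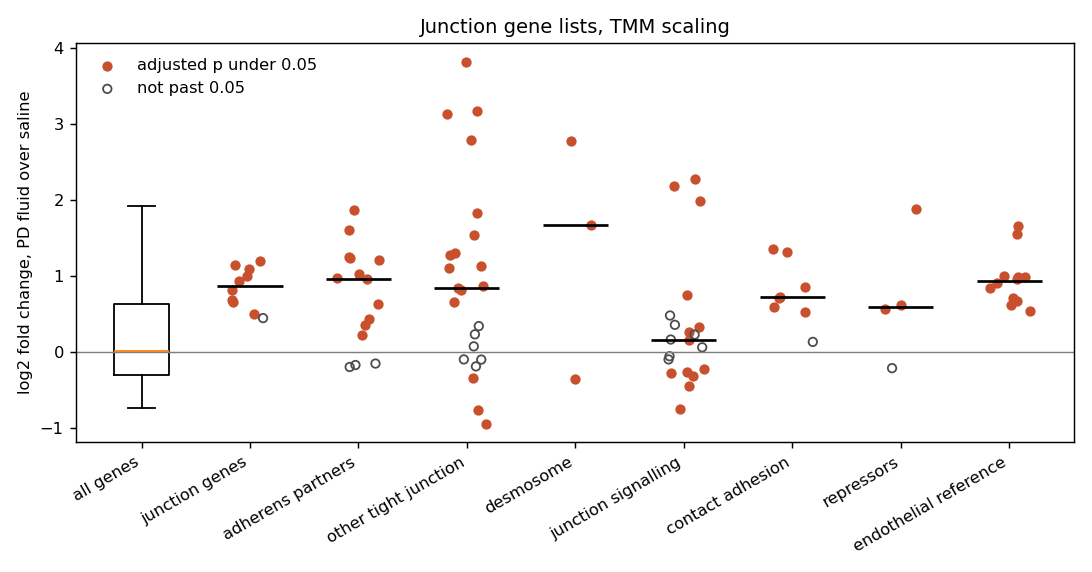
Log2 fold changes on the TMM scale, PD fluid over saline (3 mice a group), of the genes of 8 lists, a point for each gene tested and a black line for the list median, beside all 14005 genes tested (box: quartiles, whiskers: 5th and 95th percentiles). The medians of the junction genes (0.87), adherens partners (0.96), other tight junction genes (0.85) and endothelial genes (0.93) lie close together on this scale, and junction signalling genes (0.16) near that of all genes (0.02); after scaling to the endothelial genes the 10 junction genes have a median of -0.08.

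Genes were ranked by how near their pattern over the 6 mice was to that of Cdh5. The junction genes of the set were left out of this ranking, so their absence from it carries no information. By the root mean square distance of centred log2(CPM + 1) values, the nearest were Cadm3 (0.030), Abhd4 (0.031), Efhd2 (0.036), Rras (0.045) and Eps8l2 (0.045). In all, 92 genes lay within 0.1. Rras, a small GTPase, had means of 20.4 ± 2.25 CPM with saline and 35.8 ± 0.849 CPM with PD fluid (SD, n = 3 each). Cadm3 had a mean of 0.959 CPM in saline mice, where the added constant compresses the scale. Its log2 fold change on the TMM scale was 1.25, beside 0.82 for Cdh5.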

How the data were processed

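The junction genes and all gene lists were chosen with earlier results of these data known. Per the labels, poly(A) mRNA was sequenced on an Illumina NovaSeq, and the submitters' processing notes name fastp 0.18.0, Bowtie2 2.2.8, HISAT2, StringTie 1.3.1 and RSEM. The genome build and annotation of the counts are not given in the sources used here. The authors deposited read counts per gene and FPKM values for each mouse. Their mean FPKM, log2 fold change, p-value and FDR columns hold the authors' own comparison and were not used. Of 22183 identifiers, 22128 matched GENCODE M21 on GRCm38, from which positions were taken.

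Counts were filtered with filterByExpr (14005 genes kept), scaled by TMM and tested with the quasi-likelihood test of edgeR 4.0.16 in R 4.3.3, PD fluid against saline with no covariate, at an adjusted p threshold of 0.05. The study names limma, which served as an alternative here (limma-voom, limma 3.58.1), as did DESeq2 1.42.0. Standard errors were derived from the F statistic. For the endothelial scale, libraries were scaled to the geometric mean count of 12 endothelial genes, whose own error is not in the intervals. Ratios and promoters were computed with Python 3.11.15 and scipy 1.17.1. Other alternatives were RLE size factors, no filter, the replicate number as a block and leaving out each mouse. The test was checked on simulated counts in which far fewer genes changed than were called here. That check does not cover changes of this breadth on the TMM scale. Counts of replicate libraries differed by more than sampling noise (chi-square per gene at least 6.46), so each library was counted as a separate mouse.

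The genes named besides the 10 are, in each junction list, up to 3 risers and 3 fallers with the greatest log2 fold change past the threshold, Pecam1, Ptprc and the most abundant gene of each marker list, and the 5 nearest to Cdh5; Ctnna1, Ctnnb1, Ptprm, Krit1, Zeb1, Tek, Tie1, the other leukocyte genes and the desmosomal genes without a test were named after their values were seen. Mpp5 and Cd99 were in the lists and matched no symbol of the table. The most abundant markers, with mean CPM in saline and PD mice, were Egfl7 (134 and 207), Mmrn1 (115 and 430), Gpm6a (18.6 and 75.3), Dcn (60.1 and 550), Rgs5 (223 and 267), Cela2a (0.497 and 2584) and, beside Lyz2 and Pf4, St14 (14.0 in both).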

Additional observations from a re-analysis of the deposited data

How the results depend on the processing

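Between 9 and 10 of the 10 junction genes were higher with each mouse left out in turn, and 9 with no filter, RLE size factors, DESeq2 and limma-voom. The number of genes called over the whole table stayed between 6996 and 8450, and became 1187 higher and 10040 lower when scaled to the 12 endothelial genes. That scaling lowers every value by construction: it turned the log2 fold change of Ocln, which passed on neither scale, to -0.51, Cdh5 to -0.14, Cldn5 to -0.0295, Tjp1 to -0.45, Jam2 to -0.28 and Afdn to -0.30. On that scale the 3 lower genes were Tjp1, Jam2 and Afdn with each of the 12 reference genes left out in turn, and 3 or 4 genes were called with each mouse left out. Without saline replicate 3 these were Tjp1, Jam2 and Ocln (-0.74) as lower and Jup (0.38) as higher, and Afdn lost its call (-0.24). Without PD fluid replicate 3, Jup (0.31) was added to the 3. Esam was called higher without Tie1 (0.19) or without Robo4 (0.18). With the 7 lymphatic genes added to the reference, 8 of the 10 genes were lower, among them Cdh5 at -0.61 and Esam at -0.35. This reference lowers every value further, and the share of all genes called lower with it was not counted. The count of 8 is therefore not read as a result about the junction genes. The references with a gene left out or with lymphatic genes added were chosen after seeing the data. Between 5 and 7 of the 9 ratios to Cdh5 did not overlap with each mouse left out, and 5 with 1 added to the CPM.

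The labels number the mice 1 to 3 in both groups. With the replicate number as a block, 7909 genes and 9 of the 10 junction genes were called, and 3 on the endothelial scale. The correlations of same-numbered mice were 0.19, 0.07 and -0.27, so the numbers mark no pairing that the data show, and not every mouse correlated best with its own number. Ocln had at most 77 counts in any mouse. Whether the mice were processed in batches is not given in the sources used here, and with 3 mice a group the ratio tests could not reach the threshold.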
